A study of Papio anubis with 24 samples.

Results

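Chromosome 3 of the olive baboon (Papio anubis) carried 14715 of the 211395 DNA methylation peaks called in baboon pluripotent cells. These were 11529 of the 166961 peaks of embryonic stem cells (ESC) and 3186 of the 44434 peaks of induced pluripotent stem cells (iPSC). The members are all peaks on chromosome 3 in either list. A zone from 25 to 45 Mb was defined on that chromosome from peak density, and the zone held 2431 ESC and 814 iPSC peaks. Density chose the zone, so its density is given below as a description and supports nothing by itself.

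The study profiled DNA methylation by MeDIP-seq, in which sheared genomic DNA is precipitated with an antibody against 5-methylcytosine and sequenced beside an input library that was not precipitated. Its 24 libraries comprise 6 MeDIP and 6 input libraries of ESC (lines B4 and B15) and 6 of each kind of iPSC (lines 160-2 and M14939#3), with 3 replicates per line and library type, and all lines were grown on feeder cells in the same stem cell medium with no other treatment named. Of the 6 libraries titled M14939#3, 5 carry another number in their cell line label, and both labels are of iPSC. The data analysed here are 1 peak list per cell type, so no replicate error, no value per line and no test between cell types exists, and cell type and line cannot be told apart. Any DNA of feeder cells in the libraries cannot be seen in such lists.

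Methylation of cytosine, mostly where it is followed by guanine, is a stable mark that is copied when DNA replicates, and in mammals it covers most such sites outside active promoters. Reprogramming of a somatic cell to an iPSC resets much of this pattern. An antibody against 5-methylcytosine enriches most where many methylated sites lie close together, so MeDIP peaks mark methylated stretches rich in such sites, and a region without peaks may still be methylated at scattered sites. Chromosome ends of primates are often rich in genes and in CpG sites.

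Chromosome 3 as a whole lay slightly above the autosomal average. It carried 63.6 ESC peaks per Mb (exact Poisson 95% interval 62.4 to 64.8) against 58.5 over all 20 autosomes, and 17.6 iPSC peaks per Mb (17.0 to 18.2) against 15.7. Its rank among the autosomes was 6 in the density of both lists. Without the zone the rest of the chromosome had 56.4 ESC and 14.7 iPSC peaks per Mb, which would rank 12 in both lists. Leaving out a zone chosen for its density lowers the rest by construction, and the other autosomes were ranked whole. The intervals here and below are exact and cover counting error only. They treat each peak as a separate event, although neighbours are not independent.

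Both ends of chromosome 3 and a block inside it stood out in both lists. The near end (the first 5 Mb) had 208.8 ESC and 93.6 iPSC peaks per Mb, and the far end (the last 5 Mb before the last peak at 181328776) had 198.2 and 84.4. The zone had 122 ESC peaks per Mb (117 to 126) and 40.7 iPSC peaks per Mb (38.0 to 43.6). The remaining interior of 151.3 Mb had 46.7 (45.6 to 47.8) and 9.79 (9.30 to 10.3).

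Relative to the remaining interior, the zone was 2.60 times as dense in the ESC list (2.49 to 2.73) and 4.16 times as dense in the iPSC list (3.81 to 4.53). Relative to both ends together it reached 0.597 of their density in ESC (0.563 to 0.634) and 0.457 in iPSC (0.415 to 0.503). With the ESC list cut to the length of the iPSC list by significance, the zone had 35.1 ESC peaks per Mb. For iPSC, ends of 10 Mb in place of 5 Mb raised the value against the ends to 0.698, and a zone from 32 to 47 Mb raised that against the interior to 6.42. In the deposited lists the contrast between zone and remaining interior was thus larger in the iPSC list, and so was the shortfall of the zone against the ends. The zone makes up 11.0% of the chromosome's length and held 21.1% of its ESC peaks and 25.5% of its iPSC peaks.

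**Figure D1:**
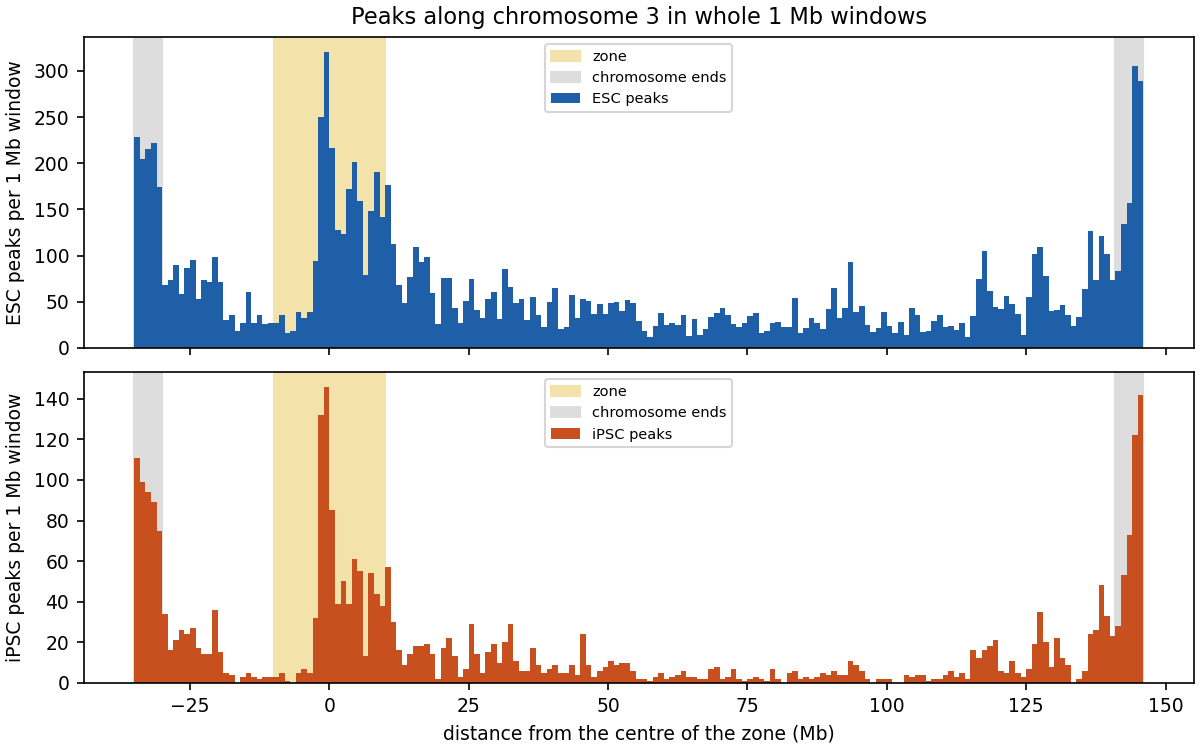
Peaks per whole 1 Mb window of chromosome 3 (vertical axis) by distance from the centre of the zone in Mb (horizontal axis), ESC above and iPSC below, with the zone in yellow and both ends in grey. In both lists the highest window, with 321 ESC and 146 iPSC peaks, lies next to the centre of the zone, while the first 7 windows of the zone hold at most 39 ESC and 7 iPSC peaks.

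The zone was not evenly dense, and its borders do not match the dense stretch. Its first 7 windows of 1 Mb, from 25 to 32 Mb, held 16 to 39 ESC peaks and 0 to 7 iPSC peaks each. At the lower border nothing changed: the windows just outside and just inside it, 24 to 25 and 25 to 26 Mb, had 27 ESC and 3 iPSC peaks each. At the upper border the window inside (44 to 45 Mb) had 142 ESC and 38 iPSC peaks, and the window outside (45 to 46 Mb) had more, 176 and 57. The window from 46 to 47 Mb still had 113 and 30, and the next fell to 68 and 16. The rule therefore joins a sparse stretch of 7 Mb to a dense one that begins in the window from 32 Mb (94 ESC and 32 iPSC peaks) and runs past 45 Mb. The stretches within the zone used below were delimited after these counts were seen.

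The sparse first 7 Mb had 207 ESC peaks (29.6 per Mb) and 26 iPSC peaks (3.71 per Mb, 2.43 to 5.44). These densities were 0.634 (0.549 to 0.728) and 0.379 (0.247 to 0.558) of those in the remaining interior. The sparsest window of the zone was 27 to 28 Mb in the ESC list, with 16 ESC peaks and 1 iPSC peak. In the iPSC list it was 28 to 29 Mb, with 0 iPSC peaks beside 18 ESC peaks. The longest stretch of the zone without an iPSC peak ran over 2158.5 kb, from 27149474 to 29307977. The longest without an ESC peak ran over 231.5 kb, from 28129252 to 28360717, and lies inside it.

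The dense part set in abruptly and near the same place in both lists. In bins of 100 kb, the 78 bins from 25 to 32.8 Mb together held 239 ESC and 30 iPSC peaks. The next 2 bins, up to 33 Mb, held 62 and 28. From 32 to 45 Mb the zone had 171 ESC peaks per Mb (164 to 178) and 60.6 iPSC peaks per Mb (56.5 to 65.0), which is 3.67 times (3.49 to 3.84) and 6.19 times (5.67 to 6.75) the remaining interior. Even this part stayed below the ends, at 0.841 (0.791 to 0.893) of their density in ESC and 0.681 (0.618 to 0.750) in iPSC.

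**Figure D2:**
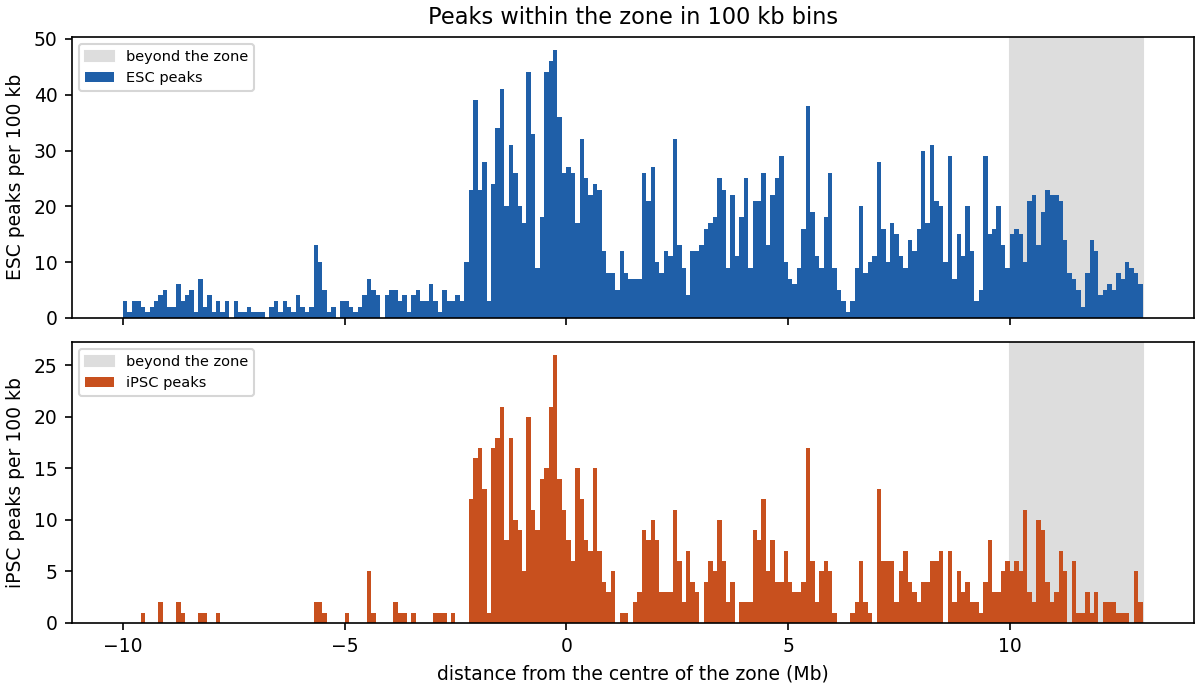
Peaks per 100 kb bin (vertical axis) by distance from the centre of the zone in Mb (horizontal axis), ESC above and iPSC below, with bins beyond the zone on grey. Both lists are low over the first 78 bins and step up together, and the tallest bin of each, with 48 ESC and 26 iPSC peaks, is the same one.

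The 5 densest windows of the zone by ESC peaks were 34 to 35 Mb (321 ESC and 146 iPSC peaks), 33 to 34 Mb (250 and 132), 35 to 36 Mb (216 and 85), 39 to 40 Mb (201 and 61) and 43 to 44 Mb (191 and 44). By iPSC peaks the first 4 were the same, followed by 40 to 41 Mb (159 ESC and 55 iPSC peaks). The window from 34 to 35 Mb was the densest of the whole chromosome in both lists, above every window of the ends.

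At the near end the densest window in both lists was the first Mb, with 228 ESC and 111 iPSC peaks. At the far end it was 179 to 180 Mb for ESC, with 305 peaks, and 180 to 181 Mb for iPSC, with 142 peaks. In the remaining interior it was 45 to 46 Mb in both lists, the window that adjoins the zone. The peak of the zone thus exceeded the top of either end in both lists, although the zone as a whole was less dense than the ends. Against the far end the gap was small, with 321 against 305 ESC and 146 against 142 iPSC peaks. These are the highest of 20 zone windows and of 5 whole windows per end, and the zone was chosen on density. End windows of the other autosomes reached 384 ESC and 163 iPSC peaks.

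Among the 2384 interior windows of all autosomes, which lie more than 5 Mb from an end, the window from 34 to 35 Mb had rank 1 in both lists and the window from 33 to 34 Mb rank 2 in both. The window from 35 to 36 Mb had rank 4 for ESC and rank 5 for iPSC. The median zone window had 125.5 ESC and 38.5 iPSC peaks. The interior windows of the other autosomes had medians of 40 ESC and 7 iPSC peaks, with 90% of them at or below 93 and 27. Windows with at least 100 ESC peaks made up 11 of 20 in the zone, 9 of 151 in the remaining interior of chromosome 3 and 179 of 2213 in the interior of the other autosomes.

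Peaks lay close together in the dense part. The median distance between the starts of neighbouring ESC peaks was 2170 bp from 33 to 36 Mb and 2579 bp at the ends, against 10539 bp in the remaining interior and 18079.5 bp in the sparse first 7 Mb. For iPSC peaks it was 4514.5 bp from 33 to 36 Mb, 6085.5 bp at the ends and 38110 bp in the remaining interior. ESC peaks covered 7.50% of the bases from 33 to 36 Mb, 5.60% at the ends and 1.11% in the remaining interior, and iPSC peaks covered 4.36%, 3.36% and 0.299%. The whole zone lay between the ends and the remaining interior. Its median distances were 3264.5 bp for ESC and 7435 bp for iPSC, and its coverage 3.22% and 1.35%. Spacing and coverage largely restate density, and the stretch from 33 to 36 Mb was delimited after the counts were seen.

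The number of iPSC peaks for every 100 ESC peaks, called the iPSC ratio here, was 33.5 in the zone (30.9 to 36.3). It was 43.7 at the ends (40.4 to 47.3), 20.98 in the remaining interior (19.8 to 22.2) and 26.8 over all autosomes. The zone lay between the ends and the interior, with intervals that do not meet. In interior windows of the other autosomes the ratio also rose with the number of ESC peaks. It was 17.6 at 10 or more but fewer than 50 ESC peaks, and 24.1, 29.2, 33.9 and 34.9 in successively denser classes. The zone was chosen on density, so its place between ends and interior is a description and no separate result. The level of this ratio goes with the unequal lengths of the lists. With the ESC list cut to the iPSC length it was 116 in the zone, 150.6 at the ends and 85.3 in the remaining interior, in the same order. The ends had close values, at 44.8 (40.1 to 50.04) for the near and 42.6 (37.9 to 47.8) for the far end.

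Inside the zone the iPSC ratio differed as much as between ends and interior. It was 12.6 (8.01 to 18.9) in the sparse first 7 Mb and 46.1 (40.6 to 52.3) from 33 to 36 Mb. From 36 to 45 Mb it was 29.3 (26.1 to 32.8). The 3 densest windows of the zone therefore had an iPSC ratio like that of the ends, and the 9 windows after them one nearer the autosomal 26.8. By window the ratio ran from 0 at 28 to 29 Mb to 52.8 at 33 to 34 Mb. The 7 windows of the sparse stretch all had at least 10 and fewer than 50 ESC peaks. In that class the ratio was 15.9 (14.4 to 17.6) over 97 windows of the remaining interior of chromosome 3. It was 17.6 (17.1 to 18.0) over 1354 interior windows of the other autosomes. The interval of the sparse stretch holds both values, so its low ratio is not particular to it.

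Windows with like numbers of ESC peaks were then set side by side. With 200 to 399 ESC peaks, the 4 zone windows had an iPSC ratio of 42.9 (38.2 to 48.1) and the 6 end windows of chromosome 3 one of 44.9 (40.9 to 49.2). On the other autosomes the ratio in this class was 34.9 (30.5 to 40.0) over 4 interior windows and 41.8 (40.5 to 43.1) over 53 end windows. The zone's densest windows and the chromosome's ends had pooled intervals that largely coincide. By window the zone ran from 30.3 to 52.8 and the ends from 40.0 to 49.1. The lowest zone window, 39 to 40 Mb, had 201 ESC peaks and so lies just above the lower border of the class. The likeness to the ends thus rests on the windows from 33 to 36 Mb and depends on where the classes are cut.

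With 150 to 199 ESC peaks the intervals of the zone and the ends did not meet. The 3 zone windows (38 to 39, 40 to 41 and 43 to 44 Mb) had an iPSC ratio of 26.4 (21.8 to 31.95), and the 2 end windows one of 44.7 (36.6 to 54.4). The other autosomes had 33.9 (32.02 to 35.8) over 29 interior windows and 37.1 (35.5 to 38.8) over 43 end windows. Among the chromosome 3 windows of this class, those from 38 to 39 Mb and from 43 to 44 Mb were lowest, with ratios of 22.7 and 23.04. Windows as low as 18.4 in the interior and 18.75 at the ends occurred on the other autosomes. With so few windows, the difference has no error between windows beyond the counts. With 100 to 149 ESC peaks the intervals of zone and end met, at 33.5 (28.1 to 39.7) over 4 zone windows and 39.6 (28.2 to 54.7) in 1 end window. There the remaining interior of chromosome 3 had 25.1 (21.6 to 29.1) over 8 windows and the interior of the other autosomes 29.2 (28.2 to 30.1) over 146.

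Over the 181 whole windows of chromosome 3 the counts of the 2 lists rose and fell together, with Pearson's r of 0.953 and Spearman's rho of 0.888. Without the zone these were 0.949 and 0.861, and within its 20 windows 0.945 and 0.951. The values describe windows that share a chromosome and are not independent, and both lists rest on the same reference sequence.

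**Figure D3:**
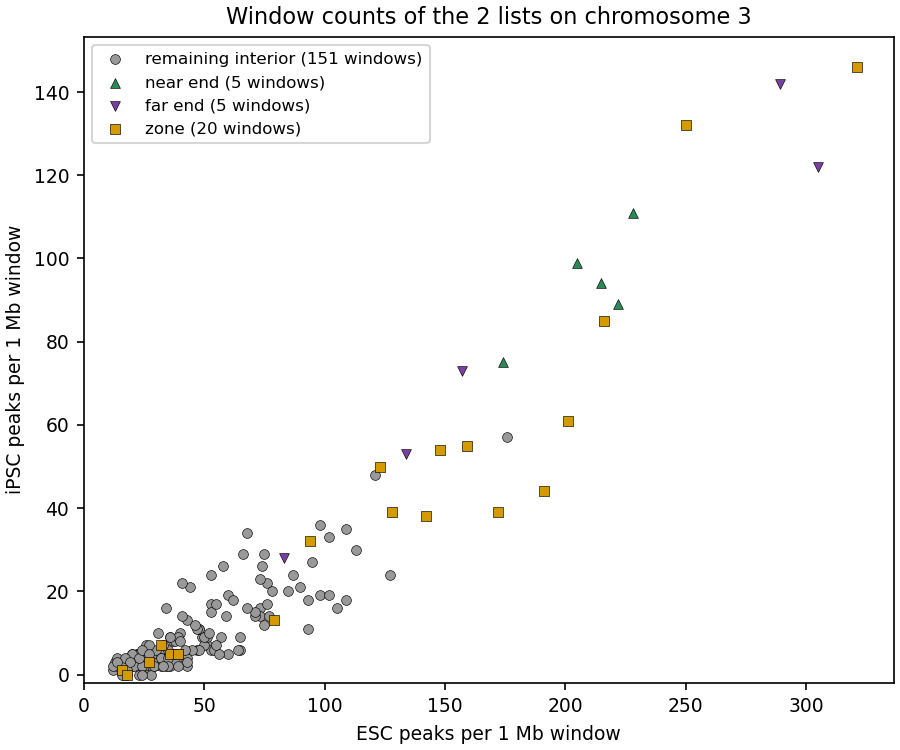
iPSC peaks (vertical axis) against ESC peaks (horizontal axis) in each whole 1 Mb window of chromosome 3, by part. The 2 highest iPSC counts of the zone (132 and 146) lie among or above the end windows. Zone windows of 172 and 191 ESC peaks, with 39 and 44 iPSC peaks, lie below the end windows of like ESC count. Those have 157 and 174 ESC peaks with 73 and 75 iPSC peaks.

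Overlap between the lists was more frequent in the zone than in the remaining interior, counting a shared base as overlap. Of the 814 iPSC peaks of the zone, 592 (72.7%, 69.5 to 75.8%) overlapped an ESC peak, where the share over all autosomes was 66.5%. It was 68.7% at the ends (65.5 to 71.7%) and 65.3% in the remaining interior (62.8 to 67.7%). The interval of the zone meets that of the ends and lies above that of the interior. Since ESC peaks cover 3.22% of the zone and 1.11% of the remaining interior, an iPSC peak meets more ESC peaks in the zone, and what part this has in the shares was not tested. With the ESC list cut to its most significant peaks, as many as the iPSC list holds, the zone's share fell to 31.3%.

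In the sparse first 7 Mb 24 of the 26 iPSC peaks (92.3%, 74.9 to 99.1%) lay on an ESC peak. From 33 to 36 Mb the share was 73.8% (69.0 to 78.3%) and from 36 to 45 Mb 70.5% (65.7 to 74.95%). The few iPSC peaks of the sparse stretch were thus nearly all at ESC sites, and the iPSC list alone held 2 peaks there.

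Of the 2431 ESC peaks of the zone, 602 (24.8%, 23.1 to 26.5%) overlapped an iPSC peak, where the share over all autosomes was 18.1%. The ends had 30.9% (28.9 to 32.9%) and the remaining interior 13.9% (13.1 to 14.8%). Within the zone the share was 11.6% (7.57 to 16.8%) in the first 7 Mb, 35.2% (31.9 to 38.6%) from 33 to 36 Mb and 20.7% (18.6 to 22.97%) from 36 to 45 Mb. The order of these parts is that of their iPSC ratios. This follows largely by counting, since an overlapping pair adds to the shares of both lists, and is no separate result.

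**Figure D4:**
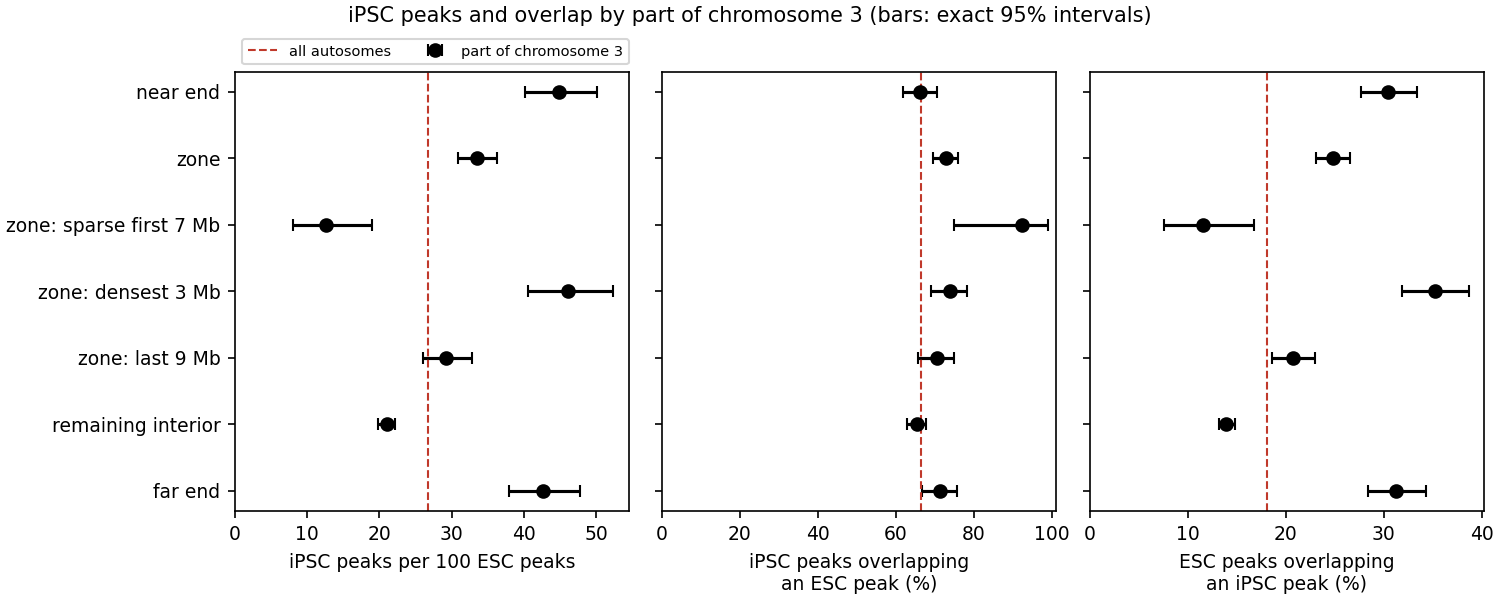
The iPSC ratio (left), the percentage of iPSC peaks on an ESC peak (middle) and the percentage of ESC peaks on an iPSC peak (right) in 7 parts of chromosome 3, with exact 95% intervals as bars and the value of all autosomes as a dashed line. The densest 3 Mb of the zone lie with the ends for the iPSC ratio (46.1), and the sparse first 7 Mb have the lowest ratio (12.6).

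The overlap of ESC peaks rose with the local background of the site. The background is the number of fragments expected at a site, against which a peak was called, and it was recovered from the deposited values. ESC peaks were sorted into 4 classes at the autosomal quartiles of background. In the highest class 46.3% overlapped in the zone (43.2 to 49.4%), 46.6% at the ends (43.7 to 49.6%) and 51.0% in the remaining interior (48.1 to 54.0%). In the lowest class the shares were 1.29%, 2.74% and 1.64%. In the class next to the highest they were 15.1% (12.5 to 18.1%), 12.9% (10.3 to 15.9%) and 17.0% (15.2 to 19.0%). The highest class made up 41.7% of the ESC peaks of the zone, 57.1% at the ends and 15.8% in the remaining interior. What part the background has in the overlap was not tested.

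For iPSC peaks the highest class of background had 80.9% overlapping in the zone (76.2 to 85.0%), 79.7% at the ends and 82.0% in the remaining interior. In the lowest class the zone had 64.8% (55.6 to 73.2%), the ends 44.8% (35.05 to 54.8%) and the remaining interior 55.6% (51.2 to 59.9%). In classes 2 and 3, counted from the lowest, the zone had 63.8% (55.2 to 71.8%) and 70.5% (64.1 to 76.4%). The ends had 60.5% (52.6 to 67.9%) and 69.4% (63.8 to 74.7%). Only in the lowest class did the intervals of zone and ends not meet, and there narrowly. The iPSC peaks of the sparse first 7 Mb, of which 24 of 26 overlapped, had a median background of 18.5 fragments, against 31.0 in the whole zone. What part they have in the lowest class was not tested.

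Peaks in one list alone lay nearer to the other list's peaks in the zone than in the remaining interior. The 222 zone peaks of the iPSC list alone had a median distance of 2302.5 bp to the nearest ESC peak. It was 1884 bp at the ends, 4804 bp in the remaining interior and 3556.5 bp over all autosomes. Within 1 kb of an ESC peak lay 31.98% of such peaks in the zone, 29.7% at the ends and 17.1% in the remaining interior. Over all autosomes 19.5% did. The 1829 zone peaks of the ESC list alone lay at a median of 6174 bp from the nearest iPSC peak. It was 3357 bp at the ends, 30843 bp in the remaining interior and 19127 bp over all autosomes. The median distances to the other list were thus shortest at the ends and longest in the remaining interior. The share of iPSC peaks within 1 kb was close in the zone and at the ends. Distance to the nearest peak depends on peak density, by which the zone was chosen.

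Zone peaks were slightly wider than those of the remaining interior and narrower than those of the ends. The median width of ESC peaks was 225 bp in the zone (interquartile range 195 to 296 bp), 233 bp at the ends and 211 bp in the remaining interior. The iPSC peaks had medians of 256 bp (212 to 348 bp), 273.5 bp and 235 bp in the same order. Over all peaks iPSC medians were thus above ESC medians in these 3 parts. At sites with 1 ESC and 1 iPSC peak the order was the reverse, with medians of 277 bp for ESC and 250 bp for iPSC in the zone, 282 and 261 bp at the ends, and 249 and 236 bp in the remaining interior.

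Of the iPSC peaks, 17 in the zone (2.09%, 1.22 to 3.32%) were 1 kb or wider, where 2.10% were so over all autosomes. The ends had 36 (4.04%, 2.85 to 5.56%) and the remaining interior 26 (1.75%, 1.15 to 2.56%). Of the 17, 12 lay from 33 to 36 Mb, among 363 iPSC peaks there. That is 3.31% (1.72 to 5.70%), an interval that holds the autosomal 2.10%. Among ESC peaks 4 in the zone were that wide (0.165%, 0.04485 to 0.421%), where 0.111% were so over all autosomes, and 10 at the ends. The zone's share of wide iPSC peaks is that of the autosomes, and its interval also meets those of the ends and the interior.

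The widest ESC peak of the zone spanned 1560 bp, from 32867127 to 32868686, with a deposited fold of 1.63. It overlapped an iPSC peak of 1457 bp and fold 2.27. The widest iPSC peak spanned 2504 bp, from 33587102 to 33589605, with a fold of 2.79. It overlapped 3 ESC peaks, the first of them 1237 bp wide with a fold of 1.30. The fold is the ratio of the fragment pileup at the summit to the background of the same list, so folds of the 2 lists are not on 1 scale.

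The median deposited fold for ESC was 2.13 in the zone, 2.05 at the ends and 2.37 in the remaining interior, and it fell within the zone from 2.66 in the first 7 Mb to 2.03 from 33 to 36 Mb. For iPSC the medians were 2.48, 2.55 and 2.63, with 2.90 in the first 7 Mb and 2.47 from 33 to 36 Mb. The order of the ESC medians was thus the reverse of the order of ESC densities, whereas for iPSC the ends had both a higher density and a higher fold than the zone. The median background, in multiples of the lowest background of the list (its 1st percentile), was 3.28 for zone ESC peaks, 3.96 at the ends and 2.06 in the remaining interior, and 3.03, 2.93 and 2.25 for iPSC. What part the background has in the number of peaks was not tested.

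Pairs of 1 ESC and 1 iPSC peak that overlapped no further peak gave 573 sites in the zone at which both lists have a value. Each fold is relative to the background of its own list, so the counts below order deposited values and not methylation levels. The iPSC fold was above the ESC fold at 77.3% of them (73.7 to 80.7%), where the share over all autosomes was 77.0%. The ends had 82.7% (79.3 to 85.6%) of 588 pairs and the remaining interior 75.7% (72.8 to 78.4%) of 949. The median folds in the zone were 1.99 for ESC and 2.47 for iPSC. The zone's share is that of the autosomes.

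At these pairs the background in the zone was 5.23 times the lowest background for ESC (interquartile range 3.81 to 6.79) and 3.13 times for iPSC (2.35 to 3.91). It was 5.30 and 3.03 at the ends and 4.06 and 2.44 in the remaining interior. The pileup on the same scale was 10.8 for ESC and 7.69 for iPSC in the zone, 10.8 and 7.76 at the ends, and 8.93 and 6.41 in the remaining interior. Sites shared by both lists in the zone were thus close to those of the ends in background and pileup. Their summits lay a median of 19 bp apart in the zone, 22.5 bp at the ends and 18 bp in the remaining interior.

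**Figure D5:**
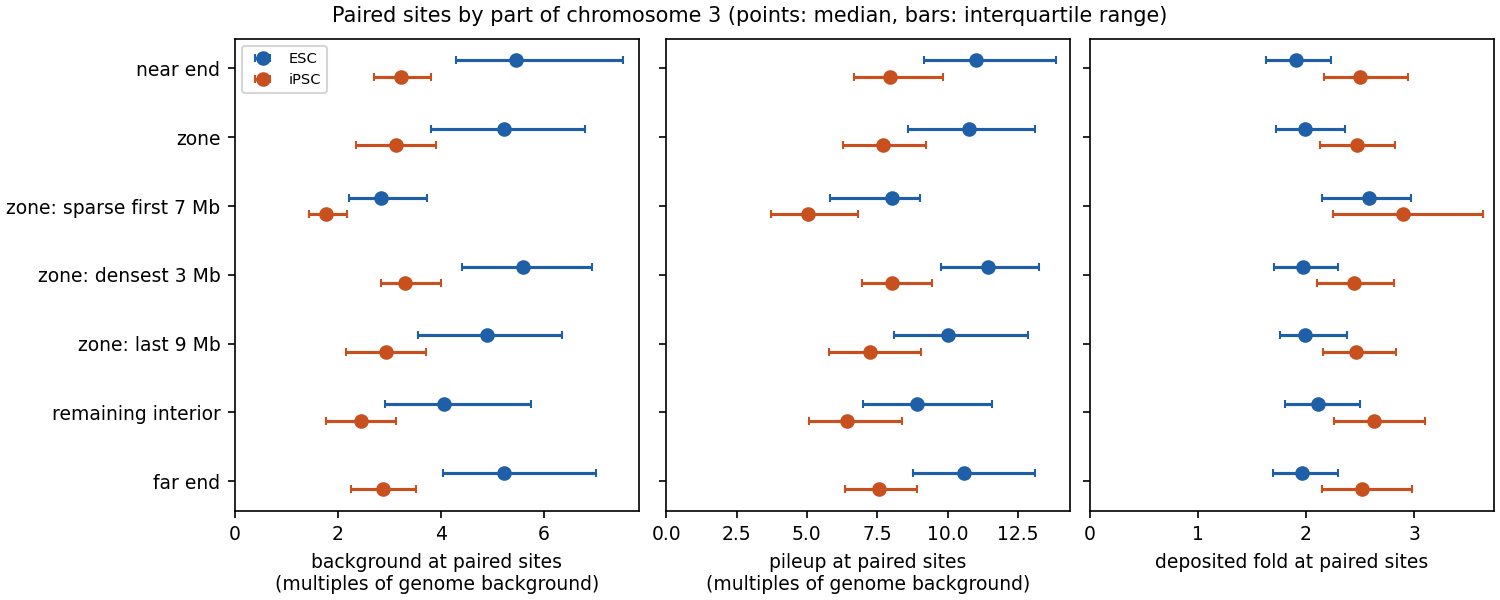
Background, pileup (both in multiples of the lowest background of the list) and deposited fold at sites with 1 ESC and 1 iPSC peak, by part of chromosome 3. Points are medians and bars interquartile ranges, and in every part shown the ESC background and pileup lie above those of iPSC and the iPSC fold above that of ESC.

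Named by position, the 3 overlapping zone sites of highest iPSC fold lay at 39603529 to 39603743 (iPSC fold 5.35, ESC fold 3.10), 35874296 to 35874527 (5.17 and 3.15) and 34719690 to 34720174 (4.94 and 1.35). At the last of these the ESC background was 200.5 fragments and the iPSC background 27. At the first site these were 36.7 and 13, and at the second 39.4 and 16. The low ESC fold at the last site thus goes with a high ESC background, and its ESC pileup of 271 fragments was the highest of the 3.

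Of the zone peaks without an iPSC partner, those of highest ESC fold had folds of 5.16 at 28986202 to 28986428, 4.44 at 38762453 to 38762669 and 4.30 at 25108411 to 25108612. The first and the last lie in the sparse stretch, 321549 and 204976 bp from the nearest iPSC peak, and the second lies 6432 bp from one. Their backgrounds, from 11.99 to 16.1 fragments, lie below the median of 39.4 fragments of all ESC peaks of the zone. Choosing by fold favours such sites, since the fold is divided by the background.

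Of those without an ESC partner, the highest iPSC folds were 6.32 at 37839209 to 37839880, 5.67 at 33891263 to 33891781 and 5.33 at 33232632 to 33233505. They are 672, 519 and 874 bp wide and lie 6878, 2622 and 15101 bp from the nearest ESC peak. Their pileups of 147, 97.3 and 158.7 fragments stood over backgrounds of 22.4, 16.3 and 29. These peaks were wider than the median iPSC peak of the zone of 256 bp.

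Away from the zone the interior was mostly sparse, with 12 to 176 ESC peaks and 0 to 57 iPSC peaks per window of the remaining interior and medians of 38 and 6. Its lowest ESC windows, 92 to 93 Mb and 149 to 150 Mb, had 12 peaks each, and 6 of its windows had 0 iPSC peaks. The 20 Mb before the zone had 56.2 ESC and 13.6 iPSC peaks per Mb, and the 131.3 Mb after it 45.2 and 9.21. Toward the far end the counts climbed again, and 171 to 172 Mb, 173 to 174 Mb and 174 to 175 Mb had 127, 121 and 102 ESC peaks with 24, 48 and 33 iPSC peaks.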

How the data were processed

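Both peak lists were made by the authors. The submitters' processing notes name MACS2, SAMtools 1.10, deepTools and Picard 2.239. The sources used here do not state the MACS2 version or options, the aligner, the genome build (not given in the sources used here) or how libraries were pooled. The deposited fold is a linear ratio of summit pileup to local background. The p-value and q-value of that comparison are deposited as −log10, with a smallest −log10 q of 1.30 in both lists, and the deposited score restates the −log10 q and was not used. Sequencing depth is not given.

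Peaks were placed by their start, and positions are printed counted from 1. The RefSeq table at hand is of Panubis1.0, whose chromosome lengths and numbering differ from those of the lists, so no gene or sequence is given. Pileup and background were recovered from fold and −log10 p by solving the ratio (1 added to both terms) and a Poisson tail, with an iPSC pileup factor of 0.690 fitted to the list. The −log10 p was matched within 0.02 for 100% of peaks. The lowest background was 11.99 fragments for ESC and 10.2 for iPSC. The step was tested on simulated data. The zone, its members and the rule for named positions were chosen with earlier results of these data known. Named are the 5 densest and the sparsest zone windows, the densest window of each other part, the 3 zone peaks of highest fold in each class and the widest. Alternatives were a stricter −log10 q minimum of 5, cutting the ESC list to iPSC length, merging within 500 bp, other zone borders or end lengths, placement by summit and overlap of 50% of both peaks. Shares carry Clopper-Pearson and densities Poisson 95% intervals, and ratios intervals conditional on the sum. Computations ran in Python 3.11.15 (scipy 1.17.1, pandas 2.3.3, numpy 2.4.6), and plots in matplotlib 3.10.9.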

Additional observations from a re-analysis of the deposited data

How the results depend on the processing

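Of 105 values under the alternatives, 64 stayed within the counting interval of the deposited lists and 41 left it. Some of the 64 could not change. Cutting the ESC list leaves the iPSC densities and widths as they were, and moved zone borders leave the ratio at the ends as it was. The tally is therefore no measure of robustness. Of the zone's density ratios to the interior and the ends, 0 crossed 1, whereas with ESC at the iPSC length the iPSC ratio passed 100 in the zone and at the ends. The zone from 32 to 47 Mb was chosen after seeing the data, and the other alternatives were planned. ESC peaks per Mb in the zone were 90.3 at a −log10 q of at least 5, 35.1 at the iPSC length, 108.4 after merging, 127.2 for 27 to 43 Mb, 115.5 for 23 to 47 Mb and 167.5 for 32 to 47 Mb. For iPSC they were 31.7 (q), 36.8 (merging), 45.3 (27 to 43 Mb), 37.8 (23 to 47 Mb) and 58.3 (32 to 47 Mb). Against the remaining interior the ESC zone was 2.74 (q), 3.06 (iPSC length), 2.43 (merging), 2.36 (ends of 2 Mb), 2.77 (ends of 10 Mb) and 3.75 (32 to 47 Mb) times as dense, and the iPSC zone 3.38, 4.77 and 6.42 in the last 3. Against the ends, ESC gave 0.482 (2 Mb), 0.842 (10 Mb) and 0.823 (32 to 47 Mb), and iPSC 0.342, 0.698 and 0.655 in the same order and 0.508 for 27 to 43 Mb. Zone ESC peaks overlapped at 22.4% (q), 36.2% (iPSC length) and 21.8% (50% of both peaks), and iPSC peaks at 63.4%, 31.3% and 65.1%. The median ESC width was 231 bp after merging. The iPSC ratio was 116 in the zone, 150.6 at the ends and 85.3 in the remaining interior with ESC at the iPSC length, which keeps their order, 47.9 (ends) and 22.4 (remaining interior) by q, and 23.4 and 19.4 in the remaining interior with ends of 2 and 10 Mb. Shorter lists and moved borders change counts by construction. The cause was not tested otherwise. No paired analysis was possible because the lists hold no values per replicate, and for that reason no replicate could be left out. Depth per library is unknown.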
